A study of Vitis vinifera with 72 samples.

Results

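The subject is the grapevine gene VIT_03s0017g00870, 3AT, which encodes an anthocyanin 3-O-glucoside acyltransferase. It is 1 gene of 29971 in the expression table, and it was followed through all 24 groups of the study, since the cultivars compared there differ in acylated anthocyanins. Total RNA came from berry pericarp, the skin and flesh without seeds, of field-grown Vitis vinifera. The groups crossed the cultivars Sangiovese and Cabernet Sauvignon with the stages mid-ripening (MR, BBCH 83) and pre-veraison (PV, BBCH 79), the seasons 2012 and 2011, and the areas Riccione, Bolgheri and Montalcino. BBCH is a numeric code of plant development, and veraison is the moment when berries begin to soften and colour. Each group held 3 biological replicates, for 72 libraries, made with a kit that does not keep the strand. Except where group means are compared, the p-values measure the spread between replicates within a group. They do not measure the spread between areas or seasons. The labels name an area for each sample but no vineyard, clone, rootstock or sequencing batch, so an area cannot be told apart from its vineyard, nor a season from a batch.

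Anthocyanins are the red and blue pigments of grape skin. The glucosyltransferase UFGT makes the first stable pigment by adding glucose to an anthocyanidin. Methyltransferases then decorate the pigment ring, and glutathione S-transferase GST4 and membrane carriers bring the product into the vacuole. 3AT, a member of the BAHD family of acyltransferases, attaches acetyl, coumaroyl or caffeoyl groups to that glucose. Cabernet Sauvignon wines are known for a large share of acylated pigments, and Sangiovese for very little of them. The study separated the parts that cultivar, site and season play in berry expression, and for 3AT this asks how far each of them moves the transcript.

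Levels are FPKM, fragments scaled to transcript length and to sequencing depth, as the authors deposited them. Differences are in log2(FPKM + 1) and were tested with limma across 20443 genes, with Benjamini-Hochberg adjusted p and a threshold of 0.05. The deposited values keep relative depth only, estimated at 0.523 to 2.26 times a typical library. Both extremes were Cabernet Sauvignon PV libraries from Bolgheri in 2012, where 3AT lay between 1.23 and 1.37 FPKM. At a typical depth 1 fragment of 3AT was worth 0.0362 FPKM. By that measure the Sangiovese PV libraries held 0 to 11 fragments each (63 in all, with an exact 95% Poisson interval of 48.4 to 80.6 that covers counting error only). Sangiovese MR libraries held 50 to 127, Cabernet Sauvignon PV libraries 19 to 85, and Cabernet Sauvignon MR libraries 1018 to 3861. The lowest correlation between replicates across genes was 0.982, and no libraries were identical. Gene symbols other than 3AT were recalled from published grapevine names and not read from an annotation. Of 23 such symbols that a RefSeq gene table also holds, some of them under another name, 22 lie on the chromosome their ID names and 1 has an unplaced ID. MYBA1 and MYBA3 matched the same RefSeq gene, as did CHI1 and CHI2. A shared chromosome does not tell which of several copies an ID stands for.

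At mid-ripening, 3AT was far lower in Sangiovese than in Cabernet Sauvignon berries in every area and season. The transcript averaged 3.35 ± 0.657 FPKM in Sangiovese, against 73.7 ± 27.3 FPKM in Cabernet Sauvignon (SD, n = 18 libraries each), and was thus 21.99-fold lower in Sangiovese. In Riccione in 2012 Sangiovese had 2.74, 2.59 and 2.61 FPKM, against 55.3, 60.5 and 37.5 FPKM in Cabernet Sauvignon. In Riccione in 2011 Sangiovese had 2.42, 4.29 and 3.76 FPKM, against 54.7, 58.7 and 76.9 FPKM in Cabernet Sauvignon. All 6 Sangiovese libraries from Riccione thus lay below the lowest Cabernet Sauvignon library there. In Bolgheri in 2012 the values were 4.43, 3.88 and 3.93 FPKM in Sangiovese, against 100.2, 107 and 129 FPKM in Cabernet Sauvignon. In Bolgheri in 2011 they were 2.66, 3.31 and 3.86 FPKM in Sangiovese, against 113, 90.2 and 109.9 FPKM in Cabernet Sauvignon. These 6 Cabernet Sauvignon libraries were the highest of the whole series. Montalcino in 2012 gave 3.21, 3.62 and 2.79 FPKM in Sangiovese, against 51.7, 48.1 and 50.6 FPKM in Cabernet Sauvignon. Montalcino in 2011 gave 2.78, 3.28 and 4.17 FPKM in Sangiovese, against 58.6, 57.3 and 67.3 FPKM in Cabernet Sauvignon. The highest Sangiovese library at MR, at 4.43 FPKM, stood below the lowest Cabernet Sauvignon library, at 37.5 FPKM, so the cultivars did not overlap.

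The cultivar difference of 3AT at MR was -4.03 on the log2 scale (SE 0.053, limma adjusted p = 4.26e-51). It was the 16th lowest of 20443 tested genes, whose median was 0.08. Of all tested genes, 25.7% were lower in Sangiovese at this contrast and 46.7% higher, so a pass in either direction was common. Over environments, that is, combinations of area and season, the difference ran from -4.63 to -3.61 and passed with limma in 6 of 6. The share of all genes lower in Sangiovese was 20.9% in Bolgheri 2011, 15.5% in Montalcino 2011, 17.3% in Riccione 2011, 27.4% in Bolgheri 2012, 16.7% in Montalcino 2012 and 19.2% in Riccione 2012. With the environment as the unit, the mean of -4.03 (SD 0.41, n = 6) was negative in 6 of 6, with a two-sided exact sign-flip permutation p of 0.03125, the smallest that 6 pairs allow. In a bulk extract, fewer pigment-making cells and less transcript per cell cannot be told apart.

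**Figure D1:**
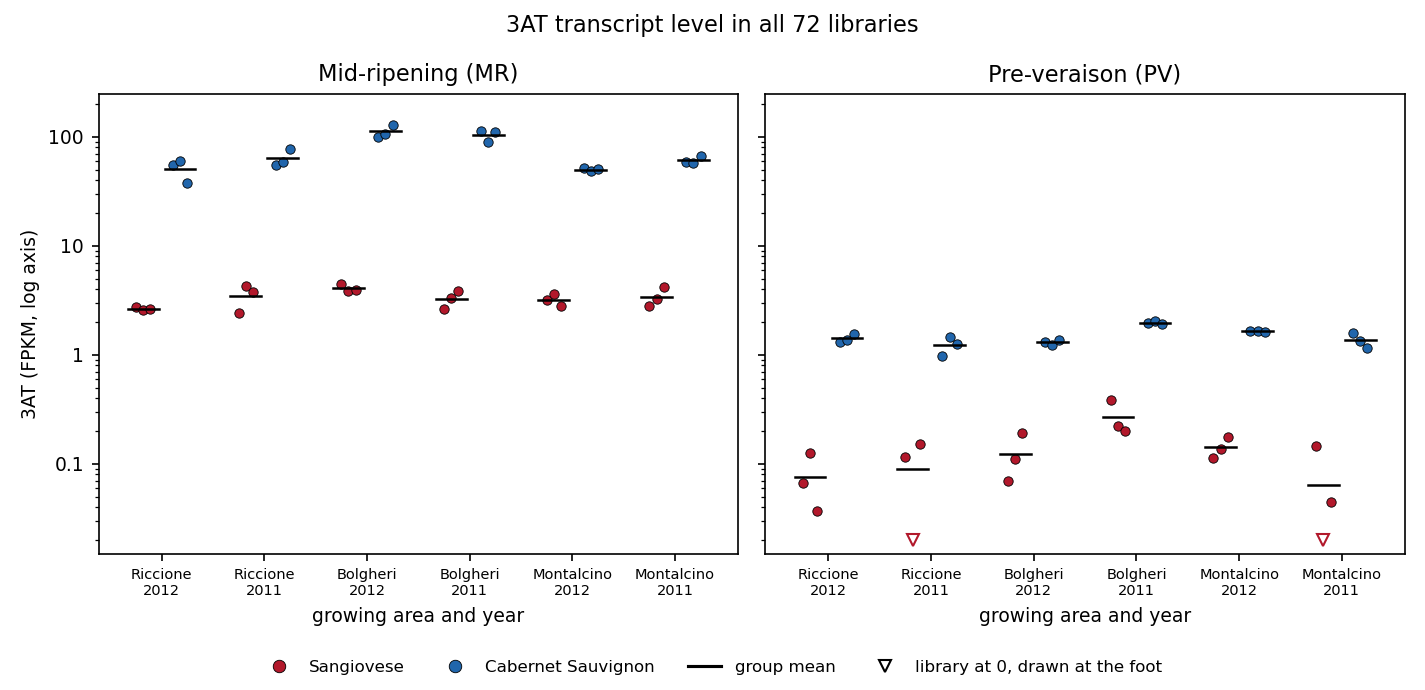
3AT in each of the 72 libraries (vertical log axis, FPKM) by area and year at mid-ripening and pre-veraison, with Sangiovese in red and Cabernet Sauvignon in blue. Bars are means of 3 libraries, and open triangles mark the 2 libraries at 0. Sangiovese lies below Cabernet Sauvignon in every column, and the MR libraries of each cultivar lie above its PV libraries.

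Before veraison 3AT was again lower in Sangiovese, where it lay near the detection limit. 3AT averaged 0.127 ± 0.0914 FPKM in Sangiovese, against 1.48 ± 0.284 FPKM in Cabernet Sauvignon (SD, n = 18 each), 11.7-fold lower in Sangiovese. In Riccione in 2012 Sangiovese had 0.0668, 0.124 and 0.0365 FPKM, against 1.32, 1.37 and 1.55 FPKM in Cabernet Sauvignon. In Riccione in 2011 it had 0.115, 0 and 0.152 FPKM, against 0.977, 1.44 and 1.26 FPKM in Cabernet Sauvignon. The library at 0 is 1 of 2 among the 18 Sangiovese PV libraries. In Bolgheri in 2012 Sangiovese had 0.0689, 0.111 and 0.192 FPKM, against 1.32, 1.23 and 1.37 FPKM in Cabernet Sauvignon. In Bolgheri in 2011 it had 0.383, 0.220 and 0.198 FPKM, against 1.94, 2.04 and 1.92 FPKM in Cabernet Sauvignon. This was the highest PV environment in both cultivars. In the same Sangiovese group UFGT averaged 1.08 FPKM and GST4 7.42 FPKM, whereas no other Sangiovese PV group passed 0.111 FPKM of UFGT or 0.891 FPKM of GST4, and their part in the 3AT level was not tested. Montalcino in 2012 gave 0.112, 0.137 and 0.176 FPKM in Sangiovese, against 1.66, 1.65 and 1.61 FPKM in Cabernet Sauvignon. Montalcino in 2011 gave 0.145, 0 and 0.0448 FPKM in Sangiovese, against 1.57, 1.35 and 1.15 FPKM in Cabernet Sauvignon. The cultivars did not overlap at PV either, the closest values being 0.383 FPKM in Sangiovese and 0.977 FPKM in Cabernet Sauvignon.

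The PV difference was -1.14 on the log2(FPKM + 1) scale (SE 0.053, limma adjusted p = 5.17e-26), the 684th lowest of the tested genes. At this contrast 34.8% of all genes were lower in Sangiovese and 39.2% higher. The difference passed with limma in 6 of 6 environments, from -1.23 to -1.03. The share of all genes lower in Sangiovese was there 27.2% in Bolgheri 2011, 24.8% in Montalcino 2011, 21.4% in Riccione 2011, 28.5% in Bolgheri 2012, 22.7% in Montalcino 2012 and 24.5% in Riccione 2012. The exact sign-flip permutation test over the 6 environments again gave its smallest p, 0.03125. Adding 1 to values this low shrinks the difference: it was -2.89 with 0.1 added, -0.34 with 5 added, and -3.70 for the means with nothing added. The sign was negative in 6 of 6 environments under each of these.

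3AT rose with ripening in both cultivars. Sangiovese stood at 3.35 FPKM at MR, against 0.127 FPKM at PV, 26.4-fold higher, and Cabernet Sauvignon at 73.7 FPKM at MR, against 1.48 FPKM at PV, 49.7-fold higher. The lowest MR library exceeded the highest PV library in both cultivars, with 2.42 against 0.383 FPKM in Sangiovese and 37.5 against 2.04 FPKM in Cabernet Sauvignon. The log2 differences were 1.94 in Sangiovese (SE 0.053, limma adjusted p = 3.39e-37) and 4.83 in Cabernet Sauvignon (SE 0.053, limma adjusted p = 1.92e-55). They were the 478th and the 62nd highest of all tested genes. Of all genes, 33.3% were higher and 54% lower at MR in Sangiovese, and 30.3% were higher and 57.8% lower in Cabernet Sauvignon. The median of all genes was -0.18 in Sangiovese and -0.25 in Cabernet Sauvignon, and median-of-ratios scaling moved it to -0.05 in both. 3AT then stood at 1.99 in Sangiovese and 5.07 in Cabernet Sauvignon. In single environments the fold of MR over PV ran from 12.3 to 53.9 in Sangiovese, where the PV libraries held 0 to 11 fragments, and from 30.6 to 85.7 in Cabernet Sauvignon.

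Mid-ripening Sangiovese stood above the level that Cabernet Sauvignon showed before veraison. Its MR libraries, at 2.42 to 4.43 FPKM, all exceeded the Cabernet Sauvignon PV libraries, at 0.977 to 2.04 FPKM, and their means differed 2.26-fold. Whether the stage change itself differed between cultivars depends on the scale. On log2(FPKM + 1) the Sangiovese change was 2.90 below that of Cabernet Sauvignon, an interaction of -2.90 (SE 0.074, limma adjusted p = 1.19e-36), where 25.3% of all genes had a negative and 41.2% a positive interaction. With 0.1 added it was -1.47. With nothing added it was -0.69, negative in 5 of 6 environments and positive in 1, with an exact sign-flip permutation p of 0.09375. The folds of 26.4 in Sangiovese and 49.7 in Cabernet Sauvignon are thus not shown to differ.

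Ordered by mean, the 24 groups fell into 4 blocks of 6: Cabernet Sauvignon MR, Sangiovese MR, Cabernet Sauvignon PV and Sangiovese PV, with no group out of its block. Of the 23 pairs of neighbours in this order, 15 overlapped in range and 8 did not. A gap set the Bolgheri groups of Cabernet Sauvignon at MR, at 112 ± 15.01 FPKM in 2012 and 104 ± 12.4 FPKM in 2011 (SD, n = 3 each), above the other 4. Those were Riccione 2011 at 63.4 ± 11.8, Montalcino 2011 at 61.05 ± 5.42, Riccione 2012 at 51.1 ± 12.1 and Montalcino 2012 at 50.1 ± 1.86 FPKM, and each of these overlapped with the next. Among Sangiovese MR groups the order began with Bolgheri 2012 at 4.08 ± 0.302 FPKM and ended with Riccione 2012 at 2.65 ± 0.0793 FPKM. Only the last of these was set off from its neighbour.

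In ripening Cabernet Sauvignon, 3AT differed between growing areas. Bolgheri berries held 108 ± 13.01 FPKM, Riccione berries 57.3 ± 12.6 FPKM and Montalcino berries 55.6 ± 6.99 FPKM (SD, n = 6 each). The Bolgheri libraries spanned 90.2 to 129 FPKM and the other 12 spanned 37.5 to 76.9 FPKM, with no overlap. Bolgheri exceeded Montalcino by 0.95 on the log2 scale (SE 0.091, limma adjusted p = 1.3e-12), 1.95-fold, in a contrast where 22.7% of all genes were higher in Bolgheri. Riccione was lower than Bolgheri, at -0.93 (SE 0.091, limma adjusted p = 2.09e-11), where 14.2% of all genes were lower in Riccione. Riccione and Montalcino differed by 0.02, with a 95% interval of -0.16 to 0.20. The F-test over the 3 areas gave a limma adjusted p of 8.1e-14, and 60.3% of all genes passed it. With the 6 group means as the unit, which leaves few residual degrees of freedom, the adjusted p was 0.386. Area held 80.8% of the sum of squares of 3AT among these 18 libraries, against 11.8% of the degrees of freedom, and libraries within groups held 12.8%.

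**Figure D2:**
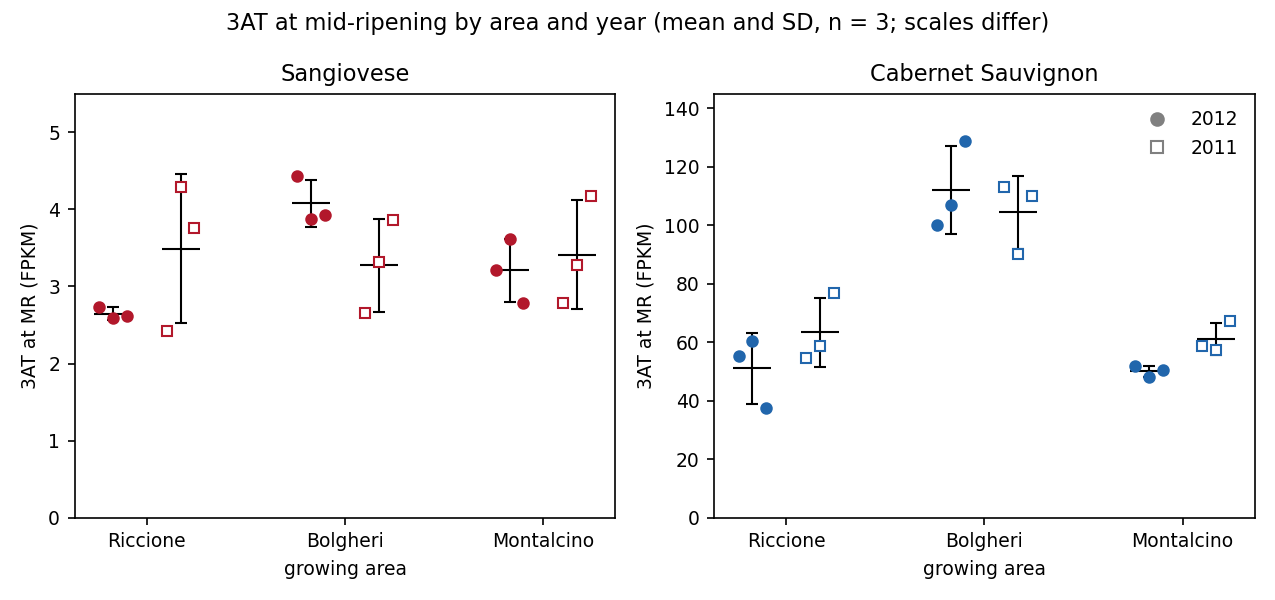
3AT at mid-ripening (FPKM, axes from 0 and of different range) by area in Sangiovese and Cabernet Sauvignon. Filled circles are 2012 libraries and open squares 2011 libraries, and bars give the mean and SD of 3. In Cabernet Sauvignon all 6 Bolgheri libraries lie above 90 FPKM and all others below 77 FPKM, whereas the Sangiovese areas overlap.

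In ripening Sangiovese the areas overlapped. Bolgheri libraries spanned 2.66 to 4.43 FPKM, and the other 12 spanned 2.42 to 4.29 FPKM. The F-test over areas did not pass (limma adjusted p = 0.136), although 48.4% of all genes did. It passed with median-of-ratios scaling (adjusted p = 0.0272) and without the second Riccione library of 2011 (adjusted p = 0.0398). Before veraison the areas did not pass in Sangiovese (adjusted p = 0.332, with 62.3% of all genes passing) or in Cabernet Sauvignon (adjusted p = 0.238, with 46.6% passing). The first passed with 0.1 added before the log (limma adjusted p = 0.00139), and the other with each stage fitted alone (limma adjusted p = 0.0288).

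On log2(FPKM + 1), the cultivar difference varied over the 6 environments at MR (limma F-test, adjusted p = 3.57e-06, where 67.2% of all genes passed). It did not vary detectably at PV (limma F-test, adjusted p = 0.845, where 68.1% passed), where adding 1 shrinks low values. With nothing added, the difference ran from -4.42 to -2.88 at PV (SD 0.56) and from -4.99 to -3.97 at MR (SD 0.40). The spread with nothing added was not tested. At MR the cultivar difference was largest in Bolgheri, 31.9-fold lower in Sangiovese in 2011 and 27.5-fold lower in 2012. In the other 4 environments it was 15.6-fold to 19.3-fold lower. A contrast of Bolgheri with the other areas was chosen after these values were seen. It gave 0.16 in Sangiovese (SE 0.079, limma adjusted p = 0.0965) and 0.94 in Cabernet Sauvignon (SE 0.079, limma adjusted p = 5.48e-14). These differ by -0.78 (SE 0.11, limma adjusted p = 1.31e-07), where 23.6% of all genes had a negative difference of this kind. The Sangiovese contrast passed under both rescalings, at 0.19 with quantile normalization and 0.23 with median-of-ratios factors.

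Averaged over areas, differences of 3AT between seasons were small on the log2(FPKM + 1) scale. The difference of 2012 from 2011 was -0.03 at MR in Sangiovese (95% interval -0.18 to 0.12, limma adjusted p = 0.835) and -0.17 at MR in Cabernet Sauvignon (-0.31 to -0.02, limma adjusted p = 0.0802). The last of these passed with 5 added before the log, with median-of-ratios scaling, or without any 1 of 4 libraries. At PV it was -0.03 in Sangiovese (-0.18 to 0.12, limma adjusted p = 0.801) and -0.03 in Cabernet Sauvignon (-0.17 to 0.12, limma adjusted p = 0.814). Between 34.2% and 50.2% of all genes passed these contrasts: 38% in Sangiovese and 34.2% in Cabernet Sauvignon at MR, and 48.2% in Sangiovese and 50.2% in Cabernet Sauvignon at PV. In Sangiovese at PV, adding 1 to such low values leaves little room for a difference. There 3AT averaged 0.124 FPKM in 2012, against 0.267 FPKM in 2011, in Bolgheri. The means were 0.142 against 0.0633 FPKM in Montalcino and 0.0759 against 0.0892 FPKM in Riccione, from 0 to 11 fragments per library.

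An interaction of area and year passed in Cabernet Sauvignon at PV (limma adjusted p = 0.0225, where 47.1% of all genes passed). There the Bolgheri groups stood at 1.31 ± 0.0691 FPKM in 2012, against 1.97 ± 0.0658 FPKM in 2011 (SD, n = 3 each), without overlap. That difference was -0.36 (SE 0.13, limma adjusted p = 0.0233), where 18.3% of all genes were lower in 2012. It lost its call with either other pseudocount, under quantile normalization and in 3 of 6 fits that left out 1 library. In Sangiovese at MR the interaction passed narrowly (adjusted p = 0.04, with 48.9% of genes passing). Both interactions lost their call with either other pseudocount, the first also under quantile normalization and without 1 Bolgheri library of 2011 or of 2012, and the second without any 1 of 8 libraries. The interaction missed the threshold in Cabernet Sauvignon at MR (adjusted p = 0.0991, with 42.9% passing) and in Sangiovese at PV (adjusted p = 0.406, with 53.5% passing). It passed in Cabernet Sauvignon at MR with 5 added (limma adjusted p = 0.0211), under quantile normalization (0.0214) and without 1 Riccione library of 2012 (0.0347), and in Sangiovese at PV with 0.1 added (0.00351).

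Most late steps around 3AT were also lower in ripening Sangiovese. Of the 8 listed genes for glucosylation, methylation and transport, 7 passed the filter on low values and 5 of those were lower in Sangiovese, with 0 higher and a median of -0.99, beside 25.7% of all genes lower. UFGT (VIT_16s0039g02230) averaged 71.2 ± 15.1 FPKM in Sangiovese, against 147 ± 50.5 FPKM in Cabernet Sauvignon (SD, n = 18 each), a difference of -0.99 (SE 0.061, limma adjusted p = 6.67e-21). GST4 (VIT_04s0079g00690) averaged 438 ± 71.9 FPKM, against 1475 ± 325 FPKM in Cabernet Sauvignon, a difference of -1.73. The methyltransferase AOMT1 (VIT_01s0010g03510) averaged 29.2 ± 12.2 FPKM in Sangiovese, against 108 ± 32.1 FPKM in Cabernet Sauvignon, a difference of -1.88. Its tandem copy AOMT2 (VIT_01s0010g03490) stood at 0.426 ± 0.190 FPKM in Sangiovese, against 9.83 ± 2.88 FPKM in Cabernet Sauvignon, a difference of -2.89. Adding 1 shrinks this low gene's difference: in mean FPKM AOMT2 was 23.1-fold lower in Sangiovese, beside 21.99-fold for 3AT, 3.70-fold for AOMT1 and 3.37-fold for GST4. Reads of such near copies are assigned with less certainty. AM2, of the anthoMATE vacuolar carriers, differed by -0.75, while AM1 differed by 0.00 (SE 0.054) and AM3 by -0.13 (adjusted p = 0.108).

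MYBA1, MYBA2 and MYC1, activators of the pigment branch, differed less than UFGT, GST4 and AOMT1. Of 11 listed MYB, bHLH and WD40 regulators, 10 were tested at MR, 4 of them higher and 3 lower in Sangiovese, with a median of 0.04, beside 46.7% of all genes higher and 25.7% lower. MYBA1 and MYBA2, the MYB factors that switch on UFGT in coloured skin, stood at 30.4 ± 8.57 and 107 ± 24.4 FPKM in Sangiovese, against 35.8 ± 13.5 and 121 ± 49.8 FPKM in Cabernet Sauvignon. The MYBA1 difference was -0.19 (SE 0.066, limma adjusted p = 0.00913), and that of MYBA2 was -0.11 (SE 0.077, adjusted p = 0.19). Their partner of the bHLH class, MYC1, stood at 23.6 ± 5.06 FPKM in Sangiovese and 22.02 ± 4.00 FPKM in Cabernet Sauvignon, a difference of 0.09 (adjusted p = 0.0711). MYBA3, a copy in the same locus whose reads may be shared with its neighbours, was higher in Sangiovese by 1.25. MYBA7 had the smallest regulator difference, 0.00, at 0.00426 FPKM in Sangiovese and 0.00434 FPKM in Cabernet Sauvignon. It was at 0 in 17 of 18 MR libraries of each cultivar and passed the filter on low values only through PV groups. No difference at MR could thus be seen for it, though it counts among the 10 tested.

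The remaining branches showed mixed signs at MR, in a contrast where 46.7% of all genes were higher and 25.7% lower in Sangiovese. Of 9 shared steps from chalcone synthase to anthocyanidin, 3 were higher and 4 lower in Sangiovese (median -0.09), with F3H1 the lowest at -1.63 and CHI2 the closest to 0 at 0.08. Of 8 genes for the coumaroyl donor, cinnamate hydroxylases and coumarate-CoA ligases, 5 were higher and 2 lower (median 0.19), though 3 were higher under either rescaling. The largest difference was that of a C4H copy, VIT_11s0065g00350, at 0.78, and the smallest that of a ligase copy, VIT_16s0039g02040, at 0.18. The former was low and scattered, at 5.10 ± 6.58 FPKM in Sangiovese, against 1.65 ± 0.563 FPKM in Cabernet Sauvignon. The most abundant C4H copy, VIT_06s0004g08150, was among the 2 lower, at 80.4 FPKM in Sangiovese, against 128 FPKM in Cabernet Sauvignon, a difference of -0.69. All 3 tannin enzymes were higher in Sangiovese, LAR1 by 2.09, ANR by 0.96 and LAR2 by 0.71. Among 17 B-ring hydroxylases, many of them near copies, 10 were tested, with 2 higher and 6 lower. The 2 higher were the F3'H copies, at 0.43 and 0.23, and the 6 lower were all F3'5'H copies. Of these 6, VIT_06s0009g02860 was near 0 at MR, at 0.00297 FPKM in Sangiovese and 0.0587 FPKM in Cabernet Sauvignon (difference -0.07). It passed the filter on low values only through Cabernet Sauvignon at PV. After quantile normalization 1 of the 10 tested hydroxylases was higher in Sangiovese. The lowest was the F3'5'H copy VIT_06s0009g02830, at 6.65 FPKM in Sangiovese, against 68.6 FPKM in Cabernet Sauvignon, a difference of -3.23.

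**Figure D3:**
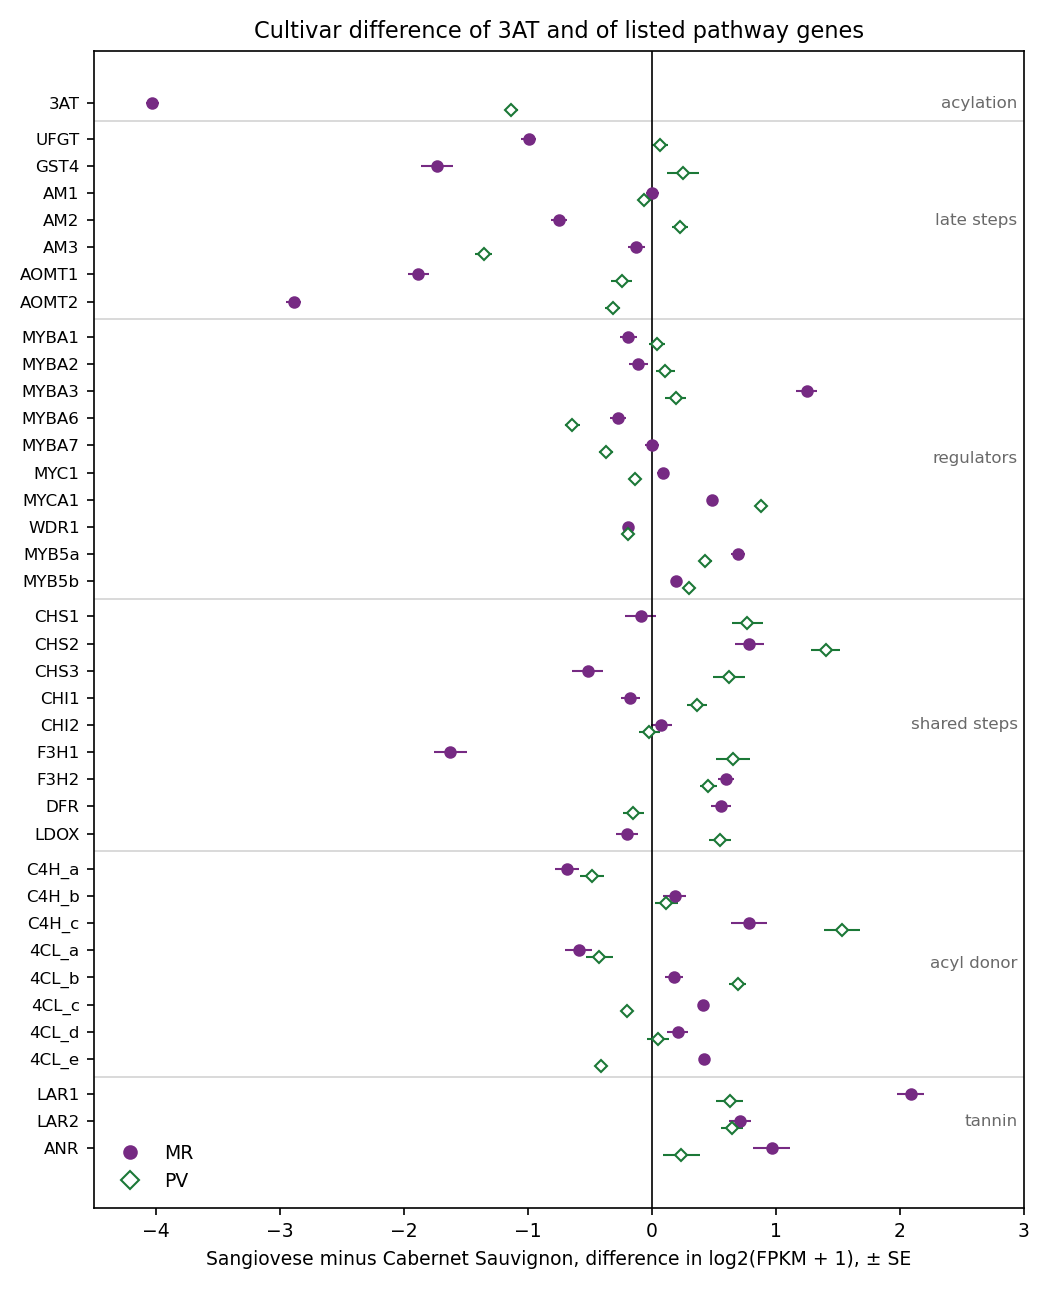
Sangiovese minus Cabernet Sauvignon for 3AT and the tested members of 5 gene lists, as differences in log2(FPKM + 1) with SE, at mid-ripening (filled circles) and pre-veraison (open diamonds). 3AT lies farthest to the left at mid-ripening, at -4.03, followed among the drawn genes by AOMT2 at -2.89, and the MYBA1 and MYBA2 activators lie near 0. The B-ring hydroxylases, with VIT_06s0009g02830 at -3.23, are not among the 5 lists.

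Set against UFGT, GST4 and AOMT1 within each library, 3AT was lower in Sangiovese by more than these partners were, which did not hold for AOMT2. At MR it reached 4.89 ± 1.42% of the UFGT level in Sangiovese, against 49.8 ± 3.81% in Cabernet Sauvignon (SD of FPKM ratios, n = 18 each). The highest Sangiovese share was 8.10% and the lowest Cabernet Sauvignon share 40.2%, so the cultivars were apart. Relative to GST4 it reached 0.773 ± 0.136% in Sangiovese, against 4.88 ± 0.853% in Cabernet Sauvignon, and relative to AOMT1 13.2 ± 6.07% in Sangiovese, against 67.4 ± 8.86% in Cabernet Sauvignon. In log2(FPKM + 1), the difference between cultivars in the distance of 3AT from UFGT was -3.04 (SD 0.38, n = 6 environments), from GST4 -2.30, from AOMT1 -2.15 and from the mean of the late list -2.84. Each was negative in 6 of 6 environments, with an exact sign-flip permutation p of 0.03125, which stayed at 0.03125 when adjusted over the 4 ratios. Relative to AOMT2, 3AT stood at 1142 ± 1114% in Sangiovese, against 741 ± 102% in Cabernet Sauvignon, with wide scatter in Sangiovese, where AOMT2 itself lay between 0.0538 and 0.712 FPKM.

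**Figure D4:**
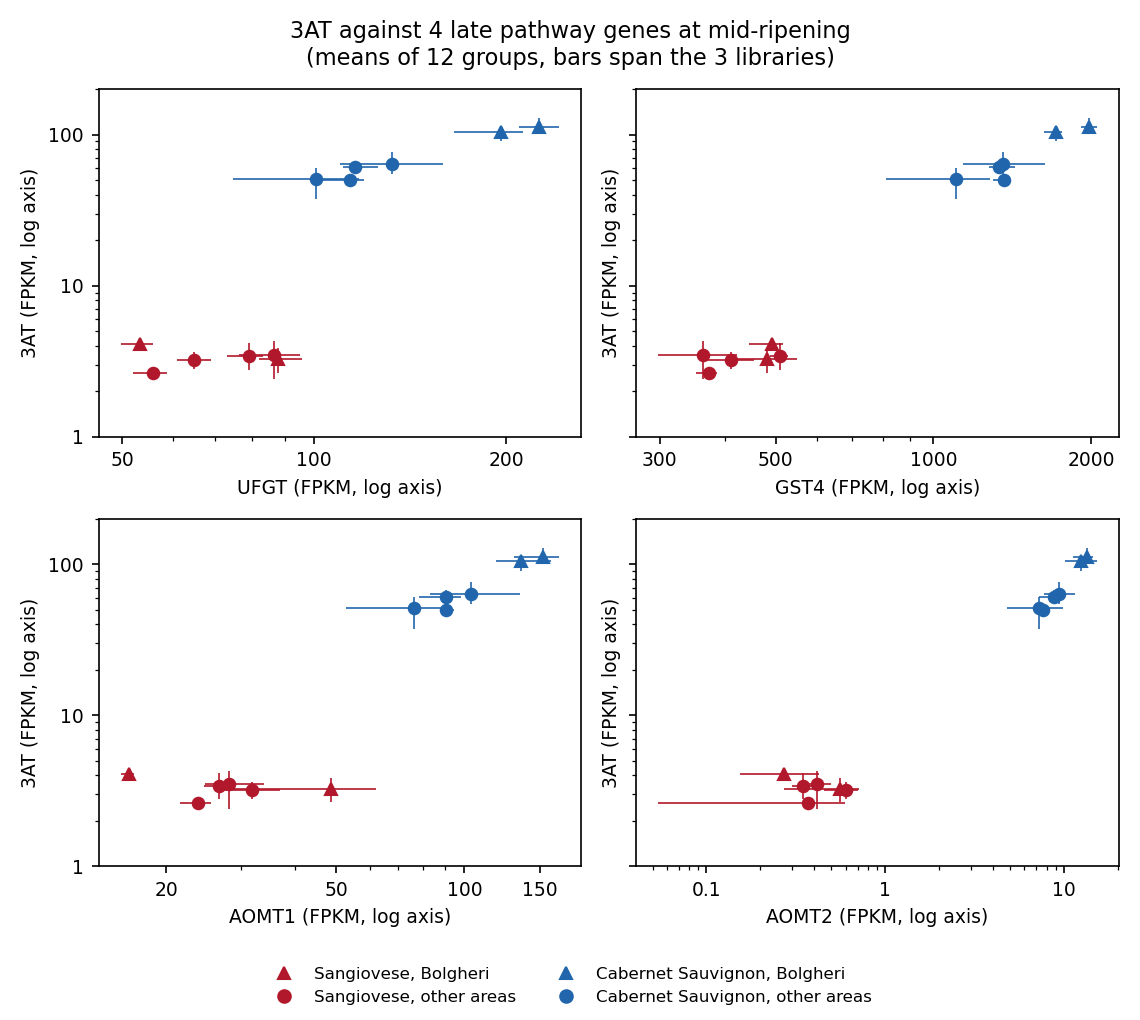
Group means of 3AT (vertical log axis, FPKM) against UFGT, GST4, AOMT1 and AOMT2 (horizontal log axes, FPKM) for the 12 mid-ripening groups, with bars spanning the 3 libraries, Sangiovese in red and Cabernet Sauvignon in blue, and triangles for Bolgheri. The Sangiovese groups form a flat band near 3 FPKM of 3AT, and the Bolgheri groups top the Cabernet Sauvignon cloud in every panel.

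Before veraison the late genes were mixed. Of the 7 tested late genes, 1 was higher and 3 lower in Sangiovese (median -0.06), where 34.8% of all genes were lower. UFGT stood at 0.245 ± 0.491 FPKM in Sangiovese and 0.145 ± 0.140 FPKM in Cabernet Sauvignon and did not pass (limma adjusted p = 0.337). GST4 stood at 1.71 ± 3.80 FPKM in Sangiovese, with up to 16.4 FPKM in 1 Bolgheri library of 2011, and at 0.681 ± 0.621 FPKM in Cabernet Sauvignon (adjusted p = 0.0777). Of the regulators 4 were higher and 4 lower, and 7 of 9 shared steps were higher in Sangiovese with 0 lower. Of the donor genes 2 were higher and 4 lower, and 2 of 3 tannin enzymes were higher.

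With ripening, 6 of the 7 tested late genes rose in each cultivar and AM3 fell, where 33.3% of all genes rose and 54% fell in Sangiovese, and 30.3% rose and 57.8% fell in Cabernet Sauvignon. UFGT rose by 5.89 in Sangiovese and by 6.95 in Cabernet Sauvignon. AOMT1 rose by 3.92 in Sangiovese and by 5.56 in Cabernet Sauvignon. MYBA1 and MYBA2 rose by 4.83 and 6.45 in Sangiovese and by 5.06 and 6.67 in Cabernet Sauvignon, while MYC1 fell by 0.18 in Sangiovese and by 0.41 in Cabernet Sauvignon. All 9 shared steps rose in both cultivars, and all 3 tannin enzymes fell in both. On the log2(FPKM + 1) scale, on which the size for low genes depends, the interaction was negative for 5 of the 7 late genes and positive for 1, beside 25.3% of all genes negative and 41.2% positive. It was -2.57 for AOMT2 and -2.90 for 3AT. It was -0.23 for MYBA1 (limma adjusted p = 0.0271) and -0.22 for MYBA2 (adjusted p = 0.0733).

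Late genes were also higher in Bolgheri in ripening Cabernet Sauvignon. Of the 7 tested, 5 were higher in Bolgheri than in the other areas and 0 lower (median 0.59), where 18.6% of all genes were higher and 21.8% lower. UFGT stood at 211 FPKM in Bolgheri, against 116 FPKM in the other areas, a difference of 0.87 beside 0.94 for 3AT. GST4 differed by 0.53, AOMT1 by 0.69, AOMT2 by 0.59 and AM2 by 0.60. Of the 10 tested regulators 0 were higher and 6 lower, MYBA1 differing by 0.19 (adjusted p = 0.133) and MYBA2 by -0.06 (adjusted p = 0.762). In Sangiovese 0 of the 7 late genes passed in either direction, where 13% of all genes were higher and 27% lower in Bolgheri. In Cabernet Sauvignon 3AT ranked 150th highest of all genes at this contrast, and in Sangiovese 3000th.

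Likeness of pattern was measured as Pearson's r of log2(FPKM + 1) with 3AT over group means, as a description, since groups share cultivar and stage. Over 24 groups and 13471 genes with at least 10 FPKM in some group, 79 genes exceeded 0.9 and the median was -0.34. The closest were VIT_17s0000g02150 at 0.98, with 1.63 FPKM in Sangiovese and 13.3 FPKM in Cabernet Sauvignon at MR, and AOMT2 at 0.98. Over the 12 MR groups, where cultivar dominates, 408 of 13463 genes exceeded 0.9. AOMT2 came first at 1.00 to 2 decimals, GST4 16th at 0.99, AOMT1 212th at 0.94 and UFGT 544th at 0.87, whereas MYBA1 stood at 0.23 and MYBA2 at 0.12. The F3'5'H copies VIT_06s0009g02830, VIT_06s0009g02840 and VIT_06s0009g02810 came 21st, 39th and 113th, and F3H1 175th, all ahead of AOMT1. The F3'5'H copies VIT_06s0009g03000 and VIT_06s0009g03010 stood at 0.52 and 0.26.

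Of the 5 next lower and 5 next higher locus numbers in the block of 3AT, 7 stayed under the filter on low values. Among those 7, the next higher number, VIT_03s0017g00900, was also lower in Sangiovese at MR, near the detection limit, and was not tested. It averaged 0.0560 FPKM in Sangiovese, with a highest library at 0.156 FPKM, against 0.364 FPKM in Cabernet Sauvignon, with a lowest library at 0.219 FPKM. The 3 tested were VIT_03s0017g00830, VIT_03s0017g00920 and VIT_03s0017g00940. At MR the first stood at 7.37 FPKM in Sangiovese and 7.80 FPKM in Cabernet Sauvignon, the second at 0.467 FPKM in Sangiovese and 1.40 FPKM in Cabernet Sauvignon, and the third at 11.7 FPKM in Sangiovese and 6.35 FPKM in Cabernet Sauvignon. The differences of the 3 tested neighbours at MR ran from -0.71 to 0.77, beside -4.03 for 3AT. All 3 fell with ripening in Cabernet Sauvignon, where 3AT rose. In Sangiovese, where 3AT also rose, VIT_03s0017g00830 rose by 0.43. There VIT_03s0017g00920 differed by -0.73 and VIT_03s0017g00940 by -1.41.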

How the data were processed

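Berry pericarp RNA was sequenced in 72 libraries of 24 groups with 3 biological replicates each. The authors deposited FPKM values per gene, and CASAVA 1.8.2, TopHat2 2.0.9 and Cufflinks 2.1.1 are named in the submitters' processing notes. No read counts were used, and total FPKM per library ran from 813505 to 1014766. Groups came from the sample labels, and replicates were numbered in accession order.

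Values were taken as log2(FPKM + 1), and genes with a mean of at least 1 FPKM in at least 1 group (20443 of 29971) were fitted with limma 3.58.1 in R 4.3.3. The model had 24 group means, 48 residual degrees of freedom, a variance trend and Benjamini-Hochberg adjustment at 0.05. Environment means were compared by exact sign-flip permutation (Python 3.11.15, numpy 2.4.6, pandas 2.3.3). Relative depth was estimated from the steps between low values of 5663 genes. The code was tested on simulated data. Named genes were 3AT, its main partners and regulators, the members of each other list with the largest and smallest cultivar difference at MR, locus neighbours and the genes most like 3AT. Some further members (AM2, AOMT2, MYBA3, ANR, LAR2, the C4H copy VIT_06s0004g08150 and other B-ring hydroxylases) were named after their values were seen. The gene, the lists and the tests were chosen with earlier results of these data known. Alternatives were other pseudocounts, no filter, rescaling, each stage alone, group means as the unit and leaving out each library.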

Additional observations from a re-analysis of the deposited data

Results flagged for a closer look

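Each of these results was picked out because an effect differed between groups by a test of the difference itself. The stage change of 3AT differed between Sangiovese and Cabernet Sauvignon by -2.90 on the log2(FPKM + 1) scale. With nothing added before the log it was -0.69, positive in 1 of 6 environments (exact sign-flip permutation p = 0.09375). The folds themselves are thus not shown to differ. The cultivar difference at MR varied over the 6 environments (limma F-test, adjusted p = 3.57e-06). The difference of Bolgheri from the other areas at MR was -0.78 in Sangiovese relative to Cabernet Sauvignon, a contrast chosen after the values were seen. The effect of area on 3AT differed between years in Cabernet Sauvignon at PV (limma adjusted p = 0.0225) and in Sangiovese at MR (limma adjusted p = 0.04). Both lost their call with 0.1 or 5 added before the log, and the one in Sangiovese also without the filter, with each stage alone and in 8 of 18 fits that left out 1 library.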

How the results depend on the processing

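The 7 main results of 3AT kept their call in all 348 recomputed values, and their direction wherever a result has one. The same held in 168 of 168 for the cultivar and 168 of 168 for the stage in single environments. The 7 include F-tests of cultivar by environment, which have no direction, and the one at PV never passed. Most of the 348 values came from fits that left out 1 library. No result reversed. Of 180 recomputed year differences in single areas, 163 kept their call, 6 lost it and 11 gained it. The exception in the environment tests was the stage fold with nothing added, -0.69 (exact permutation p = 0.0938). With 0.1 added, limma adjusted p was 0.00139 for areas in Sangiovese PV, with Bolgheri minus Montalcino at 0.55 and Riccione minus Bolgheri at -0.69, and for area by year it was 0.0778 in Cabernet Sauvignon PV, 0.236 in Sangiovese MR and 0.00351 in Sangiovese PV. With 5 added, 2012 minus 2011 in Cabernet Sauvignon MR was -0.15, and area by year had limma adjusted p of 0.0211 in Cabernet Sauvignon MR, 0.323 in Cabernet Sauvignon PV and 0.183 in Sangiovese MR. Without the filter it was 0.0565 in Sangiovese MR. Median-of-ratios scaling gave -0.19 for the years in Cabernet Sauvignon MR, and in Sangiovese MR an adjusted p of 0.0272 for areas and -0.26 for Riccione minus Bolgheri. Quantile normalization gave area by year 0.0214 in Cabernet Sauvignon MR and 0.240 in Cabernet Sauvignon PV. Each stage alone gave 0.142 for area by year in Sangiovese MR, 0.0288 for areas in Cabernet Sauvignon PV, and Riccione minus Bolgheri of -0.18 in Cabernet Sauvignon PV and -0.14 in Sangiovese PV. Group means as the unit gave 0.386 for areas in Cabernet Sauvignon MR. Higher donor genes at MR numbered 3 under either rescaling, B-ring hydroxylases lower at MR than PV in Sangiovese 1 (median-of-ratios) and 0 (quantile), and those higher in Sangiovese at MR 1 (quantile). Leaving out each library in turn gave limma adjusted p of 0.0168 to 0.0553 for area by year in Cabernet Sauvignon PV, 0.00330 to 0.149 in Sangiovese MR and 0.0347 to 0.342 in Cabernet Sauvignon MR, and 0.0398 to 0.406 for areas in Sangiovese MR. The years in Cabernet Sauvignon MR then ran from -0.21 to -0.10, and Riccione minus Bolgheri in Sangiovese MR from -0.28 to -0.12. The cause of these changes was not tested. No paired analysis was possible because the labels carry no replicate numbers that pair single libraries, and the environment tests pair group means by area and year instead. Depth limits Sangiovese PV most, with a median of 3 fragments of 3AT per library.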
